A study of Homo sapiens with 4 samples.

Results

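Antisense long noncoding RNAs are transcripts read from the strand opposite to a named gene, and their symbols carry that gene's name followed by AS and a number. The group was formed by symbol alone: every gene whose symbol ends in this way and that had at least 1 transcript in the abundance table, which gave 375 antisense genes with 506 transcripts among 15217 genes. The rule reads symbols and no difference between the lines, but a listing in the abundance table itself depends on counts, since 97.7% of its transcripts reached 5 counts in 2 or more libraries. The table lists only part of the transcripts of the reference, and 953 symbols of this form stood in the wider list of gene names, so the 375 are those listed with an abundance. A further 147 antisense genes, named here only through a transcript accession, fall outside the rule and were left out.

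The cells were PANC-1, an established human pancreatic adenocarcinoma line, and PZT-2, a derivative of PANC-1 that is 1 clone. PZT-2 carries integrated lentiviral vectors (pLL3.7-puro) that make short hairpin RNAs from the U6 promoter against the transcripts of both H2A.Z histone genes, H2AFZ (H2A.Z.1) and H2AFV (both isoforms of H2A.Z.2). Each line had 2 libraries, all grown in DMEM with serum to passages 12 to 13. The PANC-1 cells were the untransduced parent, so hairpin, vector, selection and cloning cannot be told apart in this comparison, and libraries with a scrambled hairpin were not analysed here. The libraries of a line are described as biological replicates, without saying how they were kept apart, and the p-values measure the spread between these libraries.

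H2A.Z is a variant of histone H2A that cells place in the nucleosomes around promoters, where many genes start transcription in both directions. Antisense RNAs can arise at such shared promoters, inside the sense gene or beyond its end, and some are known to affect the sense gene while for most no role is established. Many are unstable and are removed in the nucleus by the RNA exosome. The libraries were made from polyadenylated RNA, so antisense RNA without a poly(A) tail was not measured. The question addressed here was how the antisense genes, and the sense genes they are named after, differed between the knockdown clone and its parent.

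The libraries held 12861486, 15717578, 13955522 and 14175665 estimated counts (PANC-1 replicates 1 and 2, then PZT-2 replicates 1 and 2, the order used for all values below). H2AFZ was at 6389, 6034, 2212 and 2259 normalized counts, a log2 fold change of -1.47 ± 0.06 (SE). H2AFV was at 3344, 3452, 2590 and 2718, a log2 fold change of -0.36 ± 0.06. Normalized counts are counts scaled to the same effective library size, and a fold change is PZT-2 against PANC-1 throughout. The epithelial keratins KRT8, KRT18 and KRT19 were between 12385 and 41927 normalized counts in the libraries, and all 3 fell in PZT-2. KRT7 (104 to 143 normalized counts) and EPCAM (82.1 to 105) were not called, and CDH1 fell from 116 and 148 to 0 and 18.8. Of 12 fibroblast, leukocyte and endothelial markers, 8 were not in the table, LYZ and PECAM1 were under 13 normalized counts in every library, CD68 was between 1578 and 1708, and COL1A1, which also fell, was between 136 and 531. In bulk RNA of this kind, fewer cells that express a gene and less RNA per cell cannot be told apart.

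In divergent pairs the antisense gene and its sense gene start close together on opposite strands. Of the called antisense genes, 5 began within 123 bases of the sense gene's start on the other strand without overlapping it (GENCODE 29). The sequences at 4 of them, which had a usable entry and a sense gene in the abundance table, are shown so that the distances and motifs can be read. They were taken from the RefSeq promoter table of build GRCh38.p14, which had an entry for 263 of the 375 antisense genes. Capitals mark matches on either strand to 4 motifs. The first was TATAAA, known as the TATA box. Another was CCAAT, the motif of the factor NF-Y. The motif GGGCGG is called the GC box. The last was CCGGAAG, the core bound by factors of the ETS family.
ZNF528-AS1 and ZNF528, chr19:52397708-52397848, plus strand, the first 50 bases of the antisense gene followed by the stretch up to the start of ZNF528: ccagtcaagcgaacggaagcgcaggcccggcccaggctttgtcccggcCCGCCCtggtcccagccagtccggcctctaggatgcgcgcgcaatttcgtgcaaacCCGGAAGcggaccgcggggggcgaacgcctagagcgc
SRP14-AS1 and SRP14, chr15:40039203-40039452, minus strand, the 250 bases before the start of SRP14, which hold the GENCODE 29 start of SRP14-AS1: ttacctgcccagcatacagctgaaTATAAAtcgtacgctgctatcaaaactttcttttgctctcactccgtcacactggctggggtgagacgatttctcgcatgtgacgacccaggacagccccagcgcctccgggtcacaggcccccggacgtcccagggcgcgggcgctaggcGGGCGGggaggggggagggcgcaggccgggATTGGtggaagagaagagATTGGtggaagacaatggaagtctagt
SSTR5-AS1 and SSTR5, chr16:1078682-1078780, minus strand, the stretch up to the GENCODE 29 start of SSTR5 and the first 50 bases of the antisense gene: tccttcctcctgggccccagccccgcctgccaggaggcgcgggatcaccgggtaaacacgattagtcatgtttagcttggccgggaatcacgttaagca
NCBP2-AS2 and NCBP2, chr3:196942598-196942622, minus strand, the stretch between both GENCODE 29 starts: gacacgCCGCCCtcggATTGGgtcc

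The window between ZNF528-AS1 and ZNF528 was 70.9% G or C with 18 CpG sites and held a GC box and an ETS core. The SRP14 window held a TATA box, a CCAAT box in 2 copies and a GC box, the stretch at SSTR5 held none of the 4 motifs, and the 25 bases at NCBP2 held a GC box and a CCAAT box. Over 300-base promoters (250 bases before to 50 after the start), a GC box stood in 53.6% of the 263 antisense promoters and 44.6% of all 27305 promoters, and a TATA box in 7.22% and 11.95%. A CCAAT box stood in 35.4% and 35.7%, and an ETS core in 11.8% and 10.7%. The antisense promoters had a median of 20 CpG sites against 14 for all promoters. For the 108 antisense genes with starts within 2000 bases of the sense start, the median was 25. Of these 108 promoters, 62.96% held a GC box, 5.56% a TATA box, 27.8% a CCAAT box and 12.04% an ETS core. The antisense promoters belong to genes listed with an abundance, a limit not set for all promoters. The sets may therefore differ in expression too, which was not tested. A match of letters describes the window only.

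The antisense genes were a weakly expressed group. Their median level was 1.60 TPM (a level scaled for transcript length and library size), against 15.9 TPM for their sense genes and 11.4 TPM for all genes. Together they took 0.148%, 0.149%, 0.153% and 0.154% of the counts. The median antisense gene had a mean of 17.2 normalized counts, against 272 for all genes tested, and 113 of the tested antisense genes were below 10. The standard error of the log2 fold change was accordingly 0.41 at the median, against 0.12 over all genes, so that small changes of most antisense genes were not detectable at this depth.

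The 10 antisense genes with the most counts were LRRC75A-AS1, FGD5-AS1, OIP5-AS1, AFAP1-AS1, TP73-AS1, MIR1-1HG-AS1, MAGI2-AS3, NUTM2B-AS1, UGDH-AS1 and GATA2-AS1, and 5 of them passed the test. All but GATA2-AS1 had a mean of 300 or more normalized counts, a level at which 40.4% of all genes tested passed. LRRC75A-AS1, also known as SNHG29 and a host of small nucleolar RNAs, was highest at 2031, 1863, 2129 and 2306 normalized counts. Its log2 fold change of 0.19 ± 0.07 did not pass the test (adjusted p = 0.0997). OIP5-AS1, the human form of the conserved RNA called cyrano, was at 1293, 1332, 1583 and 1394. Its libraries did not overlap between the lines, but the difference missed the threshold (log2 fold change 0.18 ± 0.08, adjusted p = 0.133). MAGI2-AS3 was at 384, 379, 357 and 401, with overlapping libraries and a log2 fold change of -0.01 ± 0.10. NUTM2B-AS1 was at 395, 322, 314 and 306 and UGDH-AS1 at 332, 355, 297 and 244, each lower in both PZT-2 libraries without passing the test (adjusted p = 0.261 and 0.0791).

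The antisense genes mostly lay below their sense genes in level. In the median pair the antisense gene was at 11.1% of the sense gene's TPM in PANC-1 and also at 11.1% in PZT-2. In 47 of 317 pairs the order was turned, with the antisense gene above the sense gene in all 4 libraries. LRRC75A-AS1 was at 282 TPM in PANC-1 and 339 TPM in PZT-2, where LRRC75A was at 0.41 and 0.60 TPM. NUTM2B-AS1, MAGI2-AS3, MIR1-1HG-AS1 and TP73-AS1 were likewise above sense genes that were at 1.19 TPM or less in both lines.

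**Figure D1:**
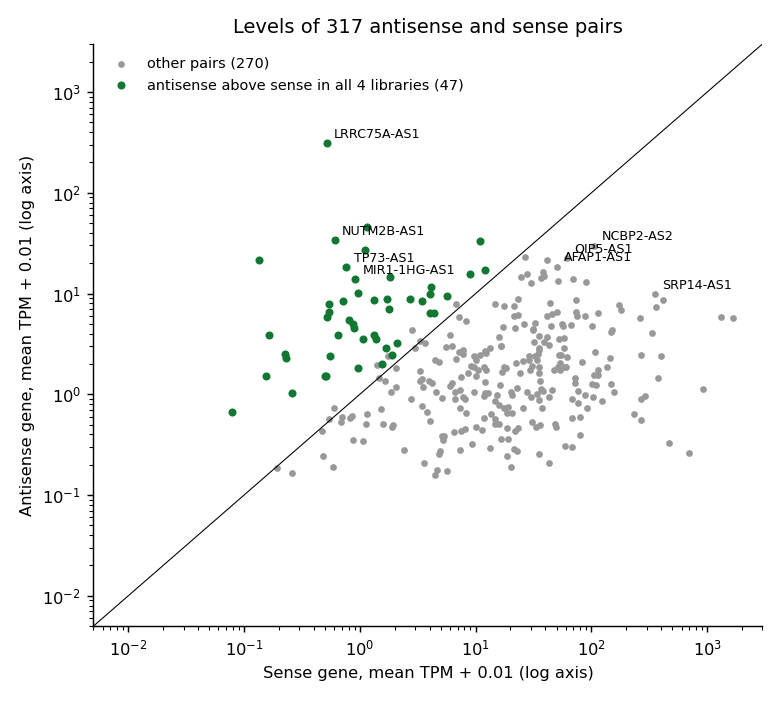
Mean TPM over the 4 libraries of each antisense gene against its sense gene in 317 pairs, on log axes after adding 0.01, with the line of equal level. The 47 pairs in green had the antisense gene above the sense gene in all 4 libraries, and the other 270 pairs lie mostly below the line.

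Of the 375 antisense genes, 373 had at least 5 counts in at least 2 libraries and were tested with all genes in edgeR's quasi-likelihood test. HAND2-AS1 (7.09, 3.04, 3.13 and 2.12 counts) and PRKAG2-AS1 (3, 5, 1 and 1 counts) were not tested. At an adjusted p under 0.05, 24 antisense genes were called (6.43%), with 11 of them higher and 13 lower. The background in the 15097 genes tested was 28.3% called, 14.7% higher and 13.6% lower. At an unadjusted p under 0.05 the count was 56 of the 373 antisense genes, against 6121 of the 15097 genes tested. The median log2 fold change of the tested antisense genes was 0.06, against 0.00083 for all genes, with 200 values above and 173 below 0. The libraries of PZT-2 and PANC-1 did not overlap for 196 of the antisense genes (52.5%), against 66.2% of all genes tested.

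The share of calls was also compared at like counts. Below 10 mean normalized counts, 4 of 113 tested antisense genes were called, where all genes gave 3.87%. Between 10 and 30 it was 5 of 131 against 8.38%, between 30 and 100 it was 6 of 88 against 19.8%, and between 100 and 300 it was 5 of 32 against 27.5%. Of the 9 antisense genes with 300 or more, 4 were called, against 40.4% of all genes. The antisense share was thus below that of all genes in the 3 middle ranges and close to it in the lowest, and the highest range rests on 9 genes.

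**Figure D2:**
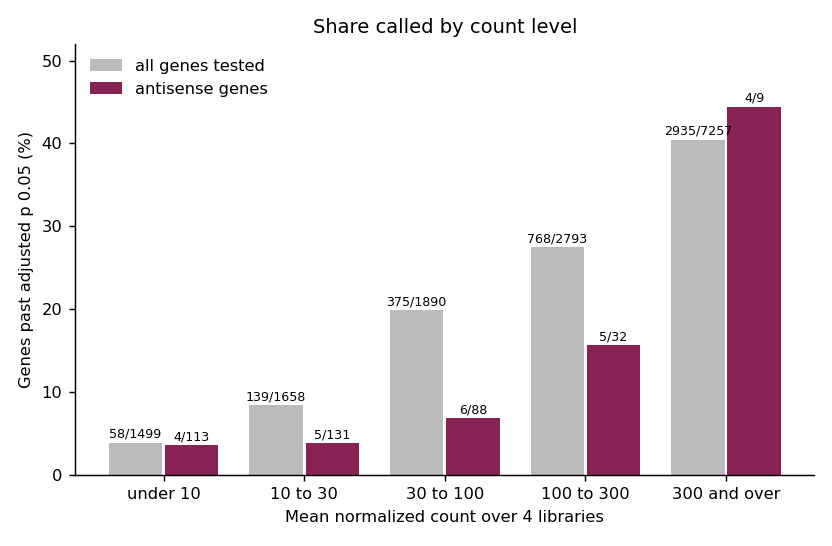
Share of genes past an adjusted p of 0.05 (vertical axis, percent) by mean normalized count over the 4 libraries, for all genes tested (grey) and antisense genes (dark red), with called over tested above each bar. Between 30 and 100 counts, 6 of 88 antisense genes were called against 19.8% of all genes.

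The count of calls depended on single libraries and on the tool. It was 8 with DESeq2 (21.3% of all genes). Leaving out replicate 1 of PZT-2 gave 9 (16.6% of all genes), and leaving out its replicate 2 gave 8 (13.6% of all genes). It was 22 without PANC-1 replicate 1 (30.6% of all genes) and 21 without PANC-1 replicate 2 (30.8% of all genes). AFAP1-AS1, FGD5-AS1, MIR1-1HG-AS1, SRP14-AS1 and SSTR5-AS1 stayed called whichever single library was left out. CBR3-AS1, PRKCQ-AS1 and TAPT1-AS1 stayed called without either library of PZT-2, and TBX2-AS1 without replicate 1 of PZT-2 alone. The others lost their call in both cases, B4GALT1-AS1 because it fell below the count filter and was not tested. When either library of PANC-1 was left out, CBR3-AS1, PRKCQ-AS1, SHANK2-AS1, TAPT1-AS1 and TBX2-AS1 fell below the filter and were not tested. Of the genes still tested, leaving out replicate 1 of PANC-1 ended the calls of CCDC18-AS1, GATA2-AS1, MRPL23-AS1, TP73-AS1 and VPS9D1-AS1. Leaving out replicate 2 of PANC-1 ended those of DLGAP1-AS1, MRPL23-AS1, PSMG3-AS1, SOX9-AS1 and ZNF528-AS1. AFAP1-AS1, FGD5-AS1 and MIR1-1HG-AS1 were called under all 13 alternatives run, and SSTR5-AS1 and TAPT1-AS1 under each of the 12 and 10 that gave them an adjusted p. At the other end, TBX2-AS1 was called under 3 of 9, GATA2-AS1 and TP73-AS1 under 4 of 13 each, and MRPL23-AS1 under 5 of 12.

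The count filter on genes also bears on 6 of the 24 calls. B4GALT1-AS1, CBR3-AS1, PRKCQ-AS1, SHANK2-AS1, TAPT1-AS1 and TBX2-AS1 reached 5 counts in the libraries of 1 line only, the line in which each is higher, so their differences are in part built into the filter. Single transcripts of other called genes also reached 5 counts in 1 line only. They belong to SOX9-AS1 (2, 3.24, 13.5 and 21.4 counts), SRP14-AS1 (1.96, 0, 23.9 and 11.1) and PSMG3-AS1 (22.1, 36.1, 0.139 and 0). The listing of transcripts may thus have added to these differences as well. With no filter, 23 antisense genes were called, and TBX2-AS1 was no longer among them (adjusted p = 0.0540).

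**Figure D3:**
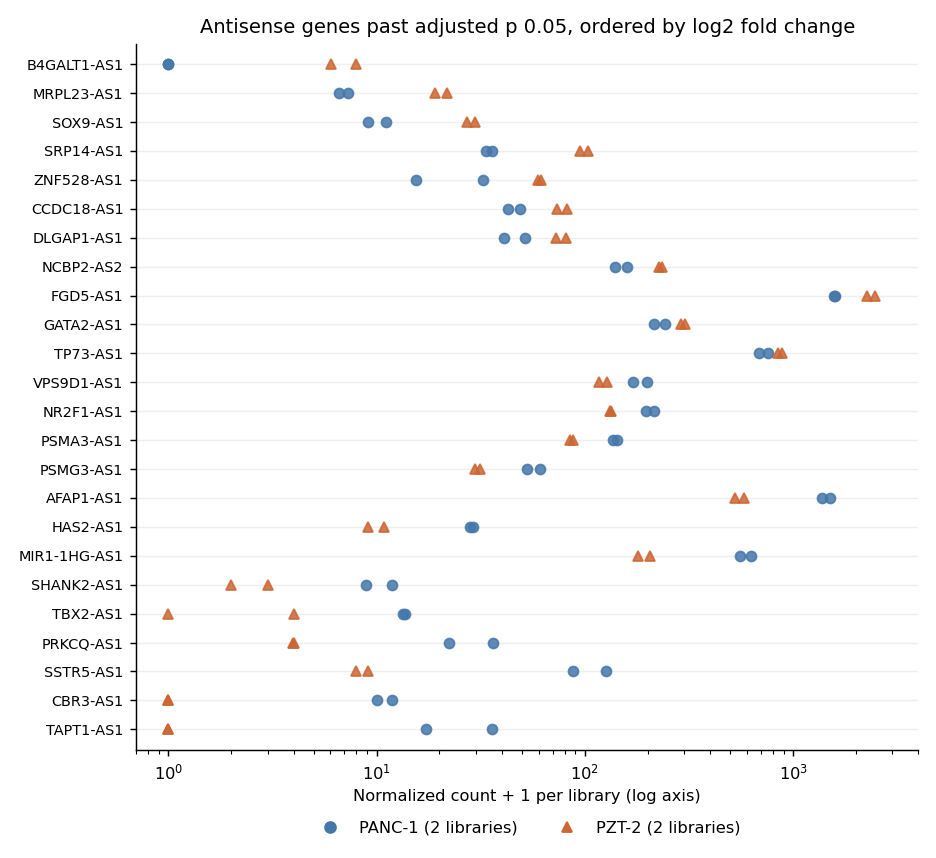
Normalized count plus 1 (log axis) of the 24 called antisense genes in each library, with 2 PANC-1 libraries as circles and 2 PZT-2 libraries as triangles, ordered by log2 fold change. For each of the 24 genes the lines' libraries do not overlap, and TAPT1-AS1, CBR3-AS1 and B4GALT1-AS1 are at 0 counts in both libraries of 1 line.

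Among the 13 antisense genes that fell, AFAP1-AS1 had by far the most counts. It is known as an RNA that is raised in many carcinomas, pancreatic adenocarcinoma included, and it overlaps the 3′ end of AFAP1, which encodes an adaptor of actin filaments (chr4:7754090-7778928, plus strand, GENCODE 29, GRCh38, 523 exonic bases shared). It was at 1375, 1511, 583 and 524 normalized counts, 26.8 TPM in PANC-1 and 10.2 TPM in PZT-2. Both PZT-2 libraries were far below both PANC-1 libraries (log2 fold change -1.38 ± 0.09, adjusted p = 0.000266). AFAP1 itself rose, from 2784 and 2508 to 3616 and 3230 (log2 fold change 0.37 ± 0.08, adjusted p = 0.0167).

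MIR1-1HG-AS1, opposite the host transcript of microRNAs best known from muscle, was at 555, 625, 204 and 178 normalized counts (log2 fold change -1.63 ± 0.11, adjusted p = 0.000413). The host transcript MIR1-1HG was close to the limit of measurement at 7.88, 11.7, 5.03 and 6.92 and was not called. SSTR5-AS1, which starts 50 bases from the gene of a somatostatin receptor in the stretch printed above, was at 126, 86.8, 8.05 and 6.92, far higher in both PANC-1 libraries (log2 fold change -3.80 ± 0.33, adjusted p = 0.000795). SSTR5 was at 0, 14.5, 1.01 and 1.98, below the count filter, and was not tested. PRKCQ-AS1, divergent from the gene of protein kinase C theta at a distance of 118 bases, was at 21.4, 35.2, 3.02 and 2.97 (log2 fold change -3.20 ± 0.52, adjusted p = 0.00625), and its sense gene had no transcript in the table.

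TAPT1-AS1 and CBR3-AS1 were counted in PANC-1 alone. TAPT1-AS1 was at 34.9, 16.3, 0 and 0 normalized counts, with a PANC-1 mean 8.54 times a floor of 3 counts per library. TAPT1 did not follow, at 132, 170, 122 and 130 (log2 fold change -0.27 ± 0.16, adjusted p = 0.277). CBR3-AS1, which spans the gene of carbonyl reductase 3, was at 9.001, 10.8, 0 and 0, with a PANC-1 mean 3.32 times this floor. CBR3 was at 61.9, 57.8, 62.4 and 55.4 (log2 fold change -0.02 ± 0.21).

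TBX2 and HAS2 fell, and both of their antisense genes were called lower. TBX2 encodes a T-box repressor of transcription, and TBX2-AS1 was at 12.4, 12.7, 3.02 and 0 normalized counts (log2 fold change -2.96 ± 0.89, adjusted p = 0.0496). Its log2 fold change was -6.66 without PZT-2 replicate 1 and -2.01 without replicate 2, where the call was lost (adjusted p = 0.116). TBX2 fell from 223 and 299 to 50.3 and 64.3 (log2 fold change -2.19 ± 0.21, adjusted p = 0.0010). HAS2-AS1, at 27.0, 28.0, 8.05 and 9.89, shares 201 exonic bases with HAS2, the gene of a hyaluronan synthase, which was at 56.3, 74.1, 30.2 and 28.7. Their log2 fold changes were -1.60 ± 0.38 and -1.15 ± 0.26 (adjusted p = 0.0227 and 0.0184).

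The other lower antisense genes had smaller changes or few counts. PSMA3-AS1, antisense to a proteasome subunit gene, was at 135, 141, 86.6 and 84.1 (log2 fold change -0.69 ± 0.14), while PSMA3 rose from 525 and 578 to 666 and 671 (0.27 ± 0.08, adjusted p = 0.0461). PSMG3-AS1, antisense to a proteasome assembly chaperone gene, was at 51.8, 59.6, 30.2 and 28.7 (-0.92 ± 0.25), with PSMG3 not called (0.12 ± 0.08). The fall of PSMG3-AS1 lay in 1 of its 2 transcripts, with 22.1, 36.1, 0.139 and 0 counts, while the other had 23.9, 29.9, 29.7 and 28.7. NR2F1-AS1 was at 214, 195, 133 and 131 (-0.63 ± 0.12), whereas NR2F1, the gene of an orphan nuclear receptor, had overlapping libraries at 488, 541, 549 and 471. VPS9D1-AS1 was at 198, 170, 116 and 127 (-0.60 ± 0.14), and VPS9D1 was at 73.1, 75.0, 97.6 and 101 without passing the test (adjusted p = 0.0983). SHANK2-AS1 was at 7.88, 10.8, 2.01 and 0.99 (-2.56 ± 0.68), and SHANK2 had no transcript in the table. The adjusted p of these 5 antisense genes ran from 0.0116 for NR2F1-AS1 to 0.0340 for PSMG3-AS1 and SHANK2-AS1.

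Among the 11 antisense genes that rose, FGD5-AS1 had the most counts, at 1565, 1592, 2262 and 2464 (log2 fold change 0.58 ± 0.07, adjusted p = 0.00178). FGD5, which it overlaps at the 3′ end, had no transcript in the table. FGD5-AS1, NCBP2-AS2 and GATA2-AS1 lie on chromosome 3, where the median log2 fold change of all 835 genes tested was 0.43 and 50.5% were called. The 39 tested antisense genes of chromosome 3 had a median of 0.37, with 29 values above and 10 below 0. The part of the chromosome in these 3 increases was not tested. The X chromosome had a median of -0.29 over all genes, and 5 of its 6 antisense genes had values below 0.

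NCBP2-AS2, whose transcript is listed as protein coding and encodes a small protein, was at 138, 159, 226 and 232 (log2 fold change 0.62 ± 0.12, adjusted p = 0.0126). NCBP2, the cap-binding subunit that starts 26 bases away on the other strand, rose by nearly the same amount, from 1394 and 1414 to 2109 and 2181 (0.61 ± 0.06, adjusted p = 0.00101). GATA2-AS1 was at 214, 241, 301 and 289 (0.37 ± 0.11, adjusted p = 0.0470), and GATA2, a transcription factor of blood and endothelial development, at 467, 609, 760 and 816 (0.54 ± 0.13, adjusted p = 0.0223). Neither of these antisense genes shared exonic bases with its sense gene.

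SRP14-AS1 and ZNF528-AS1 start beside their sense genes in the windows printed above. SRP14-AS1 was at 34.9, 32.5, 103 and 94.0 (log2 fold change 1.54 ± 0.20, adjusted p = 0.00278, but 0.65 and not called by its most abundant transcript). SRP14, a subunit of the signal recognition particle, was measured with far more counts, at 2743, 2662, 2860 and 3000, and was not called (0.12 ± 0.06, adjusted p = 0.179). ZNF528-AS1 was at 31.5, 14.5, 60.4 and 58.3 (1.39 ± 0.37, adjusted p = 0.0349). Its log2 fold change was 2.02 without PANC-1 replicate 1 and 0.90 without replicate 2 (adjusted p = 0.0638), and with DESeq2 the adjusted p was 0.0688. ZNF528, which encodes a zinc finger protein, rose from 54.0 and 48.8 to 136 and 110 (1.26 ± 0.19, adjusted p = 0.00490). Of these divergent pairs, those at ZNF528 and NCBP2 thus had both genes called higher, and that at SRP14 the antisense gene alone.

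SOX9-AS1 and B4GALT1-AS1 rose beside sense genes that rose less on the log2 scale. SOX9-AS1 was at 10.1, 8.13, 26.2 and 28.7 (log2 fold change 1.58 ± 0.38, adjusted p = 0.0243), and SOX9, a transcription factor of pancreatic duct cells, at 2277, 2050, 2626 and 2531 (0.25 ± 0.07, adjusted p = 0.0372). One SOX9-AS1 transcript, at 2, 3.24, 13.5 and 21.4 counts, reached 5 counts in PZT-2 only. The other was at 7.01, 5.76, 12.97 and 7.57 counts. B4GALT1-AS1 was at 0, 0, 5.03 and 6.92, with a PZT-2 mean 1.96 times the floor of 3 counts per library. The larger changes of both antisense genes thus rest in part on counts that reached 5 in PZT-2 only. B4GALT1, which encodes a galactosyltransferase, was at 2100, 1888, 2487 and 2518 (0.33 ± 0.07, adjusted p = 0.0149).

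TP73-AS1 and CCDC18-AS1 rose while their sense genes fell. TP73-AS1 was at 684, 754, 884 and 847 (log2 fold change 0.27 ± 0.08, adjusted p = 0.0464), and TP73, the gene of a transcription factor, at 43.9, 42.5, 17.1 and 17.8 (-1.30 ± 0.30, adjusted p = 0.0200). CCDC18-AS1 was at 41.6, 47.9, 81.5 and 72.2 (0.77 ± 0.21, adjusted p = 0.0363), and CCDC18 at 58.5, 68.7, 31.2 and 33.6 (-0.97 ± 0.23, adjusted p = 0.0244). DLGAP1-AS1, at 50.6, 39.8, 71.5 and 80.1 (0.75 ± 0.22, adjusted p = 0.0484), and MRPL23-AS1, at 5.63, 6.33, 18.1 and 20.8 (1.68 ± 0.44, adjusted p = 0.0325), rose beside sense genes that were not called, although DLGAP1 passed the test without PANC-1 replicate 1 (log2 fold change 2.46, against 1.16 with it and 0.42 without replicate 2). MRPL23, a mitochondrial ribosome protein gene with over 1270 normalized counts in each library, had a log2 fold change of -0.09 ± 0.06.

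Sense genes were called more often than antisense genes, with 109 of 311 tested (35.0%), 61 higher and 48 lower, against the 28.3% of all genes. Their median mean normalized count was 466, above that of all genes. In 314 pairs both genes were tested. In 11 pairs both were called, 7 in the same direction (HAS2 and TBX2 lower, and B4GALT1, GATA2, NCBP2, SOX9 and ZNF528 higher) and 4 in opposite directions (AFAP1, CCDC18, PSMA3 and TP73). Among the 7, TBX2-AS1 and B4GALT1-AS1 passed the count filter through a single line, and GATA2 and NCBP2 lie on chromosome 3. Neither limit applies to the 4 opposite pairs. In 9 pairs the antisense gene alone was called and in 99 the sense gene alone, and the 4 remaining called antisense genes had no tested sense gene. The pairs with both called numbered 2 under DESeq2, and leaving out either library of PZT-2 left 1.

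**Figure D4:**
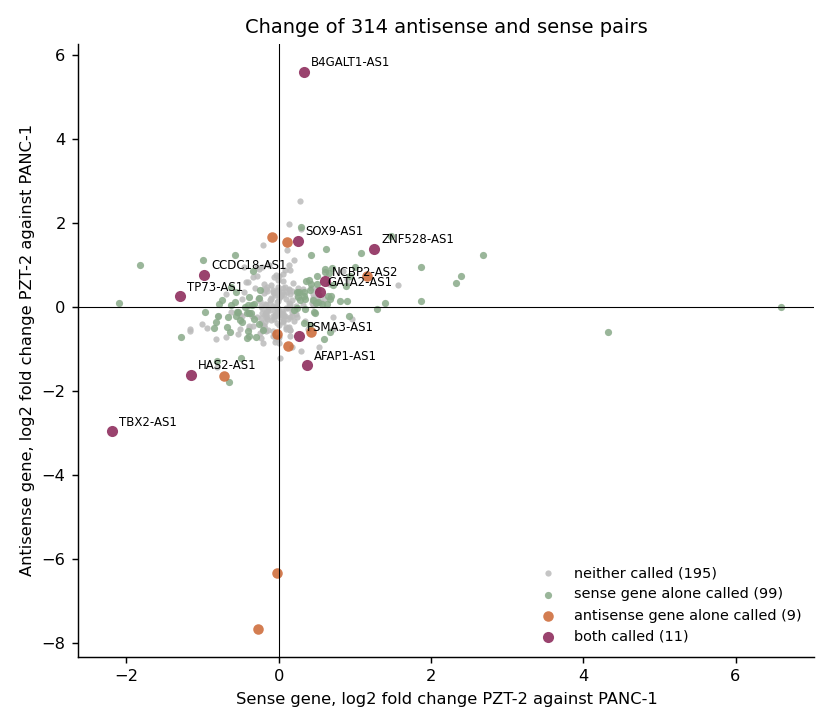
Log2 fold change of the antisense gene (vertical axis) against that of its sense gene (horizontal axis), PZT-2 against PANC-1, for 314 pairs in which both were tested. The 11 labelled pairs had both genes called, with 7 in the quadrants of equal sign and 4 in those of opposite sign.

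Regardless of calls, the 2 genes of a pair had fold changes of the same sign in 193 of 314 pairs (61.5%), 105 both higher and 88 both lower. For 14063 pairs of neighbouring genes along the chromosomes the share was 56.2%. Across the 314 pairs, which share libraries and are not independent replicates, Spearman's rho was 0.32 and Pearson's r 0.21. Where both genes had at least 50 mean normalized counts, the share was 33 of 62 pairs (53.2%) and rho was 0.14. Without chromosomes 3 and X the shares were 168 of 276 pairs (60.9%) and 54.9% of neighbouring genes (a split chosen once the values were known). The log2 ratio of antisense to sense counts changed by a median of 0.01 between the lines, within the 0.10 by which it varied between replicates (SD).

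The share with the same sign varied with the arrangement of the pair, placed on GENCODE 29 (GRCh38), in which the 375 antisense genes were 149 head to head and overlapping, 80 tail to tail and overlapping, 67 inside the sense gene, 41 head to head without overlap and 25 spanning the sense gene, with 1 tail to tail without overlap and 12 not placed. The sign was the same in 86 of 130 tested pairs that overlapped head to head (66.2%), 39 of 57 with the antisense gene inside the sense gene (68.4%) and 16 of 20 with it spanning the sense gene (80.0%). It was the same in 20 of 38 head-to-head pairs without overlap (52.6%) and in 31 of 67 tail-to-tail pairs (46.3%). With starts within 2000 bases it was 93 of 148 pairs (62.8%), and with starts further apart 99 of 164 (60.4%). Differences between arrangements were not tested. The exons overlapped in 236 of the 317 pairs. The library kit keeps the strand of each RNA, but the sources do not say whether the quantification used it, so reads from a shared exon stretch may be split between both genes. The sign was the same in 145 of 234 pairs with overlapping exons (62.0%) and 47 of 78 without (60.3%).

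**Figure D5:**
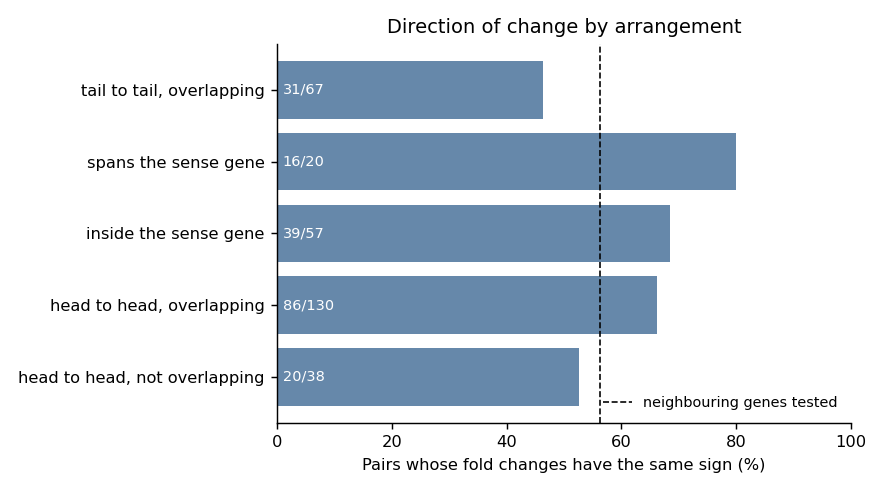
Share of pairs (horizontal axis, percent) whose antisense and sense genes had fold changes of the same sign, by arrangement, with pairs of the same sign over pairs tested in each bar. The dashed line marks the 56.2% of neighbouring genes, and tail-to-tail pairs had the lowest share at 46.3%.

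The 7 antisense genes of the HOX clusters, which hold the transcription factor genes that set body axis identity, were all tested and none passed the test. HOXB-AS3 was highest at 114, 122, 122 and 97.9 normalized counts (log2 fold change -0.10 ± 0.17). HOXD-AS2 had the largest difference, at 23.6, 20.8, 8.05 and 11.9 (-1.14 ± 0.41, adjusted p = 0.0865, unadjusted p = 0.0306), and was the only one of the 7 whose libraries did not overlap. The other 5 lay between log2 fold changes of -0.20 and 0.13.

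A set of 31 antisense genes was picked by the symbol of the sense gene, from families of transcription factor genes (GATA, FOX, SOX, ZNF, ZEB, TBX and PAX) and single regulators. It includes a zinc finger pseudogene, ZNF252P, and is not a complete list of antisense genes opposite regulators. Of the 31, 4 rose (GATA2-AS1, SOX9-AS1, TP73-AS1 and ZNF528-AS1), 2 fell (NR2F1-AS1 and TBX2-AS1) and 25 did not pass the test. The 6 calls are 19.4% of the set, against 6.43% of the antisense genes and 28.3% of all genes. This share depends on the symbols picked. NR2F1 and TP73 were listed singly, while CEBPB, ELF3 and SP2, whose antisense genes were not called, were left out. Among the 6, TBX2-AS1, GATA2-AS1 and TP73-AS1 were the calls that held under the fewest alternatives. Their median log2 fold change was 0.08, against 0.00083 for all genes. SOX21-AS1 came closest among the rest, at 74.3, 90.4, 53.4 and 52.4 normalized counts (-0.64 ± 0.20, adjusted p = 0.0569). ZEB1-AS1, opposite a regulator of epithelial to mesenchymal transition, had overlapping libraries at 20.3, 26.2, 15.1 and 24.7. Of their 28 sense genes, 5 rose, 4 fell and 19 did not pass the test, a called share of 32.1%.

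A list of genes that remove noncoding RNA or end its transcription, called surveillance genes here, was read beside these results. It holds the nuclear exosome and its adaptors, cap-binding and 5′ to 3′ decay genes, termination factors and the Integrator complex. Of 45 tested, 6 rose, 10 fell and 29 did not pass the test, so that 35.6% were called, against 28.3% of all genes (14.7% higher and 13.6% lower). Most of the 45 had over 300 mean normalized counts, a level at which 40.4% of all genes were called. The median log2 fold change was -0.09, against 0.00083 for all genes. Among the 13 exosome genes EXOSC2 (0.40 ± 0.09), EXOSC7 (0.54 ± 0.07) and C1D (0.62 ± 0.12) rose, and EXOSC8 (-0.72 ± 0.11) and MPHOSPH6 (-0.49 ± 0.12) fell. Of the adaptors that bring RNA to the exosome, the helicase MTREX (-0.42 ± 0.12), ZFC3H1 (-0.69 ± 0.11) and PABPN1 (-0.21 ± 0.06) fell. NCBP1 fell (-0.45 ± 0.11) whereas NCBP2, its partner in the cap-binding complex, rose (0.61 ± 0.06). WDR82 (0.60 ± 0.05) rose and ZC3H4 (-0.24 ± 0.07), with which it restricts noncoding transcription, fell. The termination factor PCF11 (-0.54 ± 0.16, but 0.22 and not called by its most abundant transcript) and the Integrator subunits INTS2 (-0.48 ± 0.11) and INTS3 (-0.35 ± 0.06) fell, and INTS6 rose (0.42 ± 0.10). EXOSC7, NCBP2 and WDR82 lie on chromosome 3. The number called, 16, dropped to 9 (20%) when replicate 1 of PZT-2 was left out, where 16.6% of all genes were called, and to 6 (13.3%) when replicate 2 was, where the share of all genes was 13.6%.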

How the data were processed

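RNA of PANC-1 and PZT-2 cells (2 libraries each) was sequenced by the authors from poly(A) RNA with a stranded kit in paired reads of 76 bases. The authors trimmed reads with Trim Galore 0.4.1, quantified RefSeq transcripts with kallisto 0.43.0 and tested differences between the lines with sleuth 0.29.0. The transcript release and the strand setting are not given in the sources used here. The deposited table holds estimated counts per transcript, scaled by 1 factor per library (1.16, 0.935, 1.03 and 1.01), and deposited TPM values. The factors were found from low counts of genes with 1 transcript and removed, after which 41.1% to 42.7% of these values were whole within 0.01, against 0.916% to 2.39% before. Counts were then summed per gene and rounded. Of 31077 transcripts, 27049 were named by the symbols deposited with the authors' comparison, 3925 through their accession, and 103 (0.0466% of counts) stayed unnamed and were left out. That comparison's own fold changes, p-values and q-values were not used.

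The main test was the quasi-likelihood test of edgeR 4.0.16 on genes that reached 5 counts in 2 or more libraries (scaling by TMM, two-sided, Benjamini-Hochberg adjustment over all 15097 genes, threshold 0.05), run in R 4.3.3. limma 3.58.1 and DESeq2 1.42.0 served as alternatives. A single-gene exact permutation test of 2 against 2 libraries cannot go below p = 0.333. Replicates differed by more than counting noise (chi-square per degree of freedom 5.91 in PANC-1 and 3.39 in PZT-2), and the depths of 12861486 to 15717578 counts set the precision. Floors of 3 counts cover counting error only.

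The members, gene lists and tests were chosen with earlier results of these data known. Genes named are every called antisense gene and the 10 with the highest mean normalized count, each with its sense gene, plus HOX-cluster antisense genes and a set opposite transcription factor genes picked by sense symbol. Surveillance genes are named where called.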

Additional observations from a re-analysis of the deposited data

How the results depend on the processing

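The antisense genes called (24, of which 11 higher and 13 lower) came to 8 (3 and 5) with DESeq2, which left 137 of them without an adjusted p, to 9 (2 and 7) when only each gene's most abundant transcript was counted (14% of all genes), and to 41 (20 and 21) with limma on log2(TPM + 1) (25.1% of all genes). They came to 8 to 22 (2 to 13 higher, 6 to 10 lower) when 1 library was left out, where the lone library of a line is assumed to vary like the others. Sense genes called were 57 with the most abundant transcript and 66 to 121 with 1 library left out, against 109. Pairs with both genes called were 2 (1 in the same direction) with DESeq2, 0 (0) with the most abundant transcript and 1 to 10 (0 to 9) with 1 library left out. Pairs of the same sign were 107 where 10 counts in all 4 libraries were required, since fewer genes were tested. Surveillance genes called were 6 to 17 with 1 library left out. The replicate numbers are shared by the lines only as numbers (correlation of deviations -0.06 over 9764 genes); with the replicate block 15 antisense genes (5 higher, 10 lower, against 24.7% of all genes) and 5 pairs (4 in the same direction) were called, and the ratio has no value of its own under the block. The median changes stayed within the replicate SD of 0.09 and 0.10 of their main values.

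For 73 genes (the called and the 10 most counted antisense genes with their sense genes, HOXB-AS3, HOXD-AS2, SOX21-AS1, ZEB1-AS1 and the called surveillance genes), 718 values kept direction and side of the threshold, 175 lost it, 9 gained it and 14 changed sign. Values to which DESeq2 gave no adjusted p are not counted. With the most abundant transcript the sign changed for PSMG3-AS1 (0.12), LRRC75A (-0.76) and PCF11 (0.22), and with limma for MAGI2-AS3 (0.17 at pseudocount 0.1 and 0.16 at pseudocount 1). Leaving out 1 library gave values on both sides of 0 for MAGI2-AS3 (-0.092 to 0.071), CBR3 (-0.11 to 0.062), NR2F1 (-0.13 to 0.09), NUTM2B (-1.35 to 0.014), UGDH (-0.060 to 0.19), HOXB-AS3 (-0.27 to 0.046) and ZEB1-AS1 (-0.62 to 0.081), none of them called. HOXD-AS2 passed with limma (adjusted p = 0.0261 and 0.0208). The cause was not tested. Depth limits most antisense genes, with a median standard error of 0.41 on the log2 scale.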

Other observations

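Among the antisense genes that did not pass the test, the fold changes farthest from 0 came with few counts. LMO7-AS1 had a log2 fold change of 2.53 at a mean of 3.81 normalized counts (adjusted p = 0.110), ZMIZ1-AS1 one of 1.99 at 8.57 (adjusted p = 0.149), DGUOK-AS1 one of 1.91 at 14.9 (adjusted p = 0.170) and ZNF460-AS1 one of 1.87 at 7.34 (adjusted p = 0.123). The lowest was SMC2-AS1 with -1.78 at 9.05 (adjusted p = 0.0710). They were chosen after their values were seen.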
